A study of Arabidopsis thaliana with 12 samples.

Results

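The cysteine-rich receptor-like kinases (CRKs) of Arabidopsis thaliana were taken as the 42 genes of the count table whose identifiers belong to this family, out of 32678 genes in all. Of these 42 members, 37 had enough reads to be tested and 5 did not. Transcripts were measured in leaves of 4-week-old plants, 4 h after syringe infiltration with Pst AvrRps4, a Pseudomonas strain whose effector AvrRps4 is recognised by the receptor pair RPS4 and RRS1, given at OD600 0.005. The 4 genotypes had 3 libraries each, and every library came from a pool of 4 plants. Col-0 is the reference accession and eds1-2 a mutant of EDS1, the lipase-like regulator through which receptors with a TIR domain act. The line w.tEDS1 carries wild-type EDS1, and the line R493A carries EDS1 with an exchange of arginine for alanine. The labels give neither the background nor the number of independent lines of w.tEDS1 and R493A. All 4 genotypes were infiltrated with the same bacteria, and mock-treated leaves were not analysed here, so the values describe infected leaves and not the response to infection.

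CRKs are membrane kinases whose extracellular part usually carries paired DUF26 domains, each built around a conserved spacing of cysteines, and whose cytoplasmic part is a serine/threonine kinase. They form one of the larger receptor-like kinase families of plants. Many members are known to be induced by salicylic acid, pathogens or reactive oxygen, and several promote pattern-triggered responses or cell death when their level is raised.

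The family lies mostly in tandem. In the TAIR10.1 annotation, 37 of the 42 genes were on chromosome 4, and 34 stood in 5 arrays of at least 2 members with no gap over 50 kb. The largest array held the 20 genes CRK5 to CRK24 between positions 12117491 and 12191704 of chromosome 4, a stretch of 74214 bases. A second array held CRK36 to CRK40 between 2231717 and 2292965, and another held CRK30 to CRK34 between 6963521 and 6989793. CRK28 and CRK29 were neighbours on chromosome 4, as were CRK2 and CRK3 on chromosome 1, and 8 members stood alone. Of the 41 members whose annotated coding sequence could be translated, 36 encoded 2 copies of the DUF26 spacing C-X8-C-X2-C. CRK27 and CRK24 encoded 1 copy, CRK23 encoded 3 and CRK17 encoded 4. CRK45, also called ARCK1, encoded none in its 354 residues, and neither CRK8 nor CRK9, a model of 265 residues, held the HRD motif of the kinase loop. Identity to the closest other member ranged from 44.6% to 84.9% with a median of 68.7%. CRK19 and CRK20 were the closest pair at 84.9%, followed by CRK31 and CRK32 at 83.0% and CRK8 and CRK9 at 83.0%. The deposited table has a summary entry for reads with no unique alignment, so reads that near copies share may be missing from their counts. CRK16 and CRK17 overlap by 1190 bases on the same strand, CRK28 and CRK29 by 470 bases, and CRK10 and CRK11 by 32 bases on opposite strands. The libraries do not mark strand, so reads in these stretches cannot be told apart.

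Promoters are shown for CRK36 to CRK40 and for CRK6 and CRK9, from 2 groups of neighbouring genes described further on. CRK7 and CRK8 are not printed, and CRK40 is shown although its levels overlapped in all genotypes. WRKY factors bind the W-box, searched here as TTGACC or TTGACT on both strands, which reads GGTCAA or AGTCAA from the other strand. Each sequence is the 250 bases before the annotated gene start in the RefSeq annotation of TAIR10.1, written along the gene's own strand, with W-boxes in capitals.
CRK36, chr4:2234690-2234939, minus strand: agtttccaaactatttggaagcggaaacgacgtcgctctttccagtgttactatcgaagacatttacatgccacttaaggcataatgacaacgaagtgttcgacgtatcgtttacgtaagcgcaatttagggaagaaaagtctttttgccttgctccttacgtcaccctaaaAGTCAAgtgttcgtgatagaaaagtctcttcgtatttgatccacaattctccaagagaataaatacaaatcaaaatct
CRK37, chr4:2238120-2238369, plus strand: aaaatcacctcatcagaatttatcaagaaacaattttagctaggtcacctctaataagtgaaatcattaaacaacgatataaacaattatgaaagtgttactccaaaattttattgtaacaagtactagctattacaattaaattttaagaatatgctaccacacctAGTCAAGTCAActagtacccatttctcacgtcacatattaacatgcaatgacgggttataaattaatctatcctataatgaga
CRK38, chr4:2241822-2242071, plus strand: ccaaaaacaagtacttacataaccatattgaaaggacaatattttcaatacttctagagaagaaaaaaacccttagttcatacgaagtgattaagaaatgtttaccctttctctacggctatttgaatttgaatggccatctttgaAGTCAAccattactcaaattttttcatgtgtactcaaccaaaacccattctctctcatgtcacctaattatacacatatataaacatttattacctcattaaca
CRK39, chr4:2259248-2259497, plus strand: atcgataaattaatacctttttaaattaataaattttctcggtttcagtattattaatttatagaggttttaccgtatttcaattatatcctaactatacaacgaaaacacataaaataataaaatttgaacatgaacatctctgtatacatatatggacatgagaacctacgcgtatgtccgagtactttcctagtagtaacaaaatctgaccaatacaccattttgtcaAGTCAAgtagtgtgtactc
CRK40, chr4:2288366-2288615, plus strand: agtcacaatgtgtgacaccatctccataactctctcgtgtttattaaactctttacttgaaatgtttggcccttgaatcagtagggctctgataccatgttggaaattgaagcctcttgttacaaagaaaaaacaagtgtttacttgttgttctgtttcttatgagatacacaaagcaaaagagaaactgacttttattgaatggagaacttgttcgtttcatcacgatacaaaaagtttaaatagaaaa
CRK6, chr4:12121119-12121368, plus strand: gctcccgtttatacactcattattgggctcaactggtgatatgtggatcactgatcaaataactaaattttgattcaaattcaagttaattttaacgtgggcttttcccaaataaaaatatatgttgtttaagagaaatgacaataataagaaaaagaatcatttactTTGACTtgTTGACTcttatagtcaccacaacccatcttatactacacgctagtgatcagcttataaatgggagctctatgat
CRK9, chr4:12134723-12134972, plus strand: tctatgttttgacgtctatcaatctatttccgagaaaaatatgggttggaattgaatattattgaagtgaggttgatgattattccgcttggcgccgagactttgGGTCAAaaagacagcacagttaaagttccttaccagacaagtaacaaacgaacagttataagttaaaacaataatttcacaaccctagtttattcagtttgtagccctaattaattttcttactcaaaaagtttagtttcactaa
CRK37 had 2 boxes that overlap by their shared end base, CRK36, CRK38 and CRK39 had 1 each, and CRK40, the last gene of that array, had none. CRK6 had 2 boxes, CRK8 and CRK9 had 1 each, and CRK7, which lies between CRK6 and CRK8, had none in this window. Across the family, 26 of 42 promoters held at least 1 W-box in 250 bases (61.9%), against 28.4% of the promoters of 27443 protein-coding genes. In a window of 1000 bases the shares were 85.7% and 67.3%. The core TTGAC, which both boxes contain, was found within 250 bases in 71.4% of the members and in 44.9% of all promoters. The windows of 8 members ran into another gene. A match of letters is a description and does not show that a factor binds there.

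Levels within the family spanned several orders of magnitude. CPM is a library's read count for a gene scaled to a common library total, and levels between genes are compared as CPM per kb of exon. By mean CPM per kb over the 12 libraries, CRK45 was highest at 144, followed by CRK13 at 117, CRK19 at 52.5, CRK21 at 47.0 and CRK18 at 45.9. CRK45 encodes a cytoplasmic kinase linked to abscisic acid and osmotic stress, and CRK13 is known for raising salicylic acid and resistance when overexpressed. In the summed CPM of the family, CRK13 and CRK45 together took 26.3% to 36.4% of a library. In all, 20 members lay above 10 CPM per kb, 12 between 1 and 10, and 10 below 1. Counts were found in all 12 libraries for 36 members. CRK1 and CRK25 had 0 counts in every library, which allows a level of up to 0.0114 CPM over all libraries for each, covering counting error only. CRK33 had 1 count in all, CRK32 had 52 and CRK30 had 82, and these 5 members were not tested. Since fewer cells of a type and less RNA per cell cannot be told apart in bulk tissue, a level is that of the whole leaf pool.

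**Figure D1:**
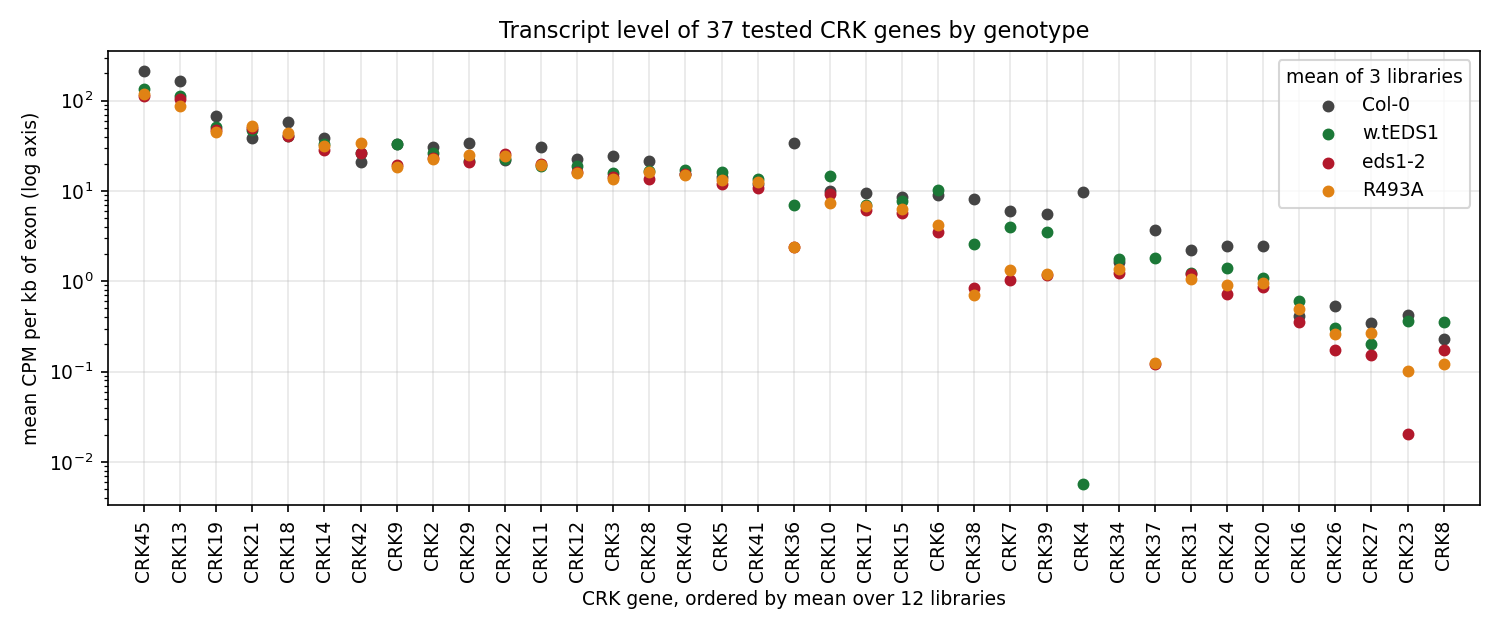
Mean CPM per kb of exon (log axis) of the 37 tested CRK genes in each genotype, ordered by the mean over 12 libraries, with 1 point per genotype (mean of 3 libraries). CRK45 and CRK13 lead in every genotype. CRK36, CRK37, CRK38 and CRK4 show wide gaps between genotypes, and CRK4 has no point for eds1-2 and R493A, where it was at 0.

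Col-0 replicates 1 and 2 stood apart from the other 10 libraries, and this touches every comparison with Col-0. On the first principal component of all tested genes (41.7% of the variance) they lay at −62.9 and −92.6, while Col-0 replicate 3 lay at −0.307 and the others between −1.68 and 48.5. The same 2 libraries were the only ones in sequencing lane 6. Of the 37 tested members, 30 were higher in both of them than in Col-0 replicate 3. The highest library was Col-0 replicate 2 for 19 members, Col-0 replicate 1 for 9 and a library of another genotype for the remaining 9. The summed level of the family lay between 1591 and 3022 CPM in the Col-0 libraries and between 1620 and 1797 CPM in w.tEDS1. In eds1-2 it lay between 1396 and 1595 CPM, and in R493A between 1408 and 1611 CPM. Gene counts per library ranged from 19273912 to 24572145. The 4 mesophyll markers summed to between 19741 and 33839 CPM and the 4 root markers to between 2.39 and 12.9 CPM. Guard cell markers summed to 35.4 to 99.8 CPM, phloem markers to 204 to 313 and dividing cell markers to 1.01 to 2.70. The pollen marker was at 0 in all but 1 library. None of these lists had a called gene in any comparison, and within the ranges the mesophyll sum was 19741 to 28363 CPM in Col-0 and 26069 to 33839 CPM in the other genotypes. The part of these markers in the differences from Col-0 was not tested. EDS1 itself lay at 23.2 to 72.0 CPM in Col-0, 111 to 196 in w.tEDS1, 3.81 to 4.09 in eds1-2 and 19.4 to 31.1 in R493A.

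With both wild-type EDS1 genotypes set against both impaired ones, 4 members were higher and none was lower. These were CRK37, CRK38, CRK36 and CRK9, of which 3 are neighbours in the array at the start of chromosome 4. The background share of higher calls over all 18770 tested genes was 1.08%. The median log2 difference was 0.44 over the 37 members tested and −0.01 over all genes, and 34 members lay above 0.

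CRK37 (AT4G04500) showed the steepest difference in this contrast among the called members. Its level was 9.20, 14.9 and 0.596 CPM in the Col-0 libraries, in the order of replicates 1 to 3 used throughout, and 5.41, 2.13 and 4.49 CPM in w.tEDS1. It was 0.393, 0.0861 and 0.335 CPM in eds1-2 and 0.133, 0.183 and 0.515 CPM in R493A. All 6 wild-type libraries were above all 6 impaired ones, though Col-0 replicate 3, with 12 reads, came close to R493A replicate 3, with 10. The log2 difference was 4.38 (SE 0.71, 95% interval 2.83 to 5.93, adjusted p = 0.0118, edgeR). Leaving out 1 library at a time kept the difference between 4.01 and 4.75, and the adjusted p then reached 0.0524.

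CRK38 (AT4G04510) is the next gene in the array. It stood at 20.9, 32.6 and 2.43 CPM in the Col-0 libraries and at 7.87, 5.31 and 4.59 CPM in w.tEDS1. In eds1-2 it stood at 1.88, 1.89 and 1.92 CPM, and in R493A at 1.59, 1.56 and 1.70 CPM. The wild-type and impaired libraries did not overlap, though Col-0 replicate 3, at 2.43 CPM, came close to eds1-2 replicate 3, at 1.92 CPM. The spread within each impaired genotype was small. The log2 difference was 2.58 (SE 0.47, interval 1.55 to 3.61, adjusted p = 0.0232, edgeR).

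CRK36 (AT4G04490) is known to associate with the flagellin receptor FLS2 and the kinase BIK1, and also with CRK45. Its level was 123, 102 and 5.57 CPM in Col-0 and 19.7, 10.3 and 17.3 CPM in w.tEDS1, against 4.24, 5.94 and 6.32 CPM in eds1-2 and 6.55, 4.03 and 5.87 CPM in R493A. Col-0 replicate 3 lay within the range of the impaired libraries, so the wild-type group as a whole overlapped them, while w.tEDS1 alone did not. The log2 difference was 2.66 (SE 0.55, interval 1.46 to 3.87, adjusted p = 0.0449, edgeR). CRK9 (AT4G23170), which lies in the large array and whose annotated protein lacks the kinase loop motif, stood at 70.02, 53.9 and 56.25 CPM in Col-0 and at 43.5, 90.7 and 49.0 CPM in w.tEDS1. It stood at 40.2, 35.5 and 29.7 CPM in eds1-2 and at 31.6, 34.1 and 34.4 CPM in R493A. All 6 wild-type libraries, Col-0 replicate 3 included, were above all 6 impaired ones, by a smaller margin than for CRK37 (log2 difference 0.82, SE 0.17, interval 0.45 to 1.20, adjusted p = 0.0451, edgeR). CRK37, CRK38 and CRK9 were the members without overlap between the wild-type and impaired libraries, 3 of 37 (8.11%) beside 1.11% of all genes. With the sequencing run or the lane in the model, or with limma-voom, none of the 4 calls was kept, while DESeq2 called 9 members, beside 2.96% of all genes. With the lane in the model the difference was 3.79 for CRK37 and 0.81 for CRK9, but 0.58 for CRK36 and 1.12 for CRK38. The Col-0 level in that fit rested on replicate 3 alone, as Col-0 replicates 1 and 2 have a lane of their own. Leaving out 1 of the 12 libraries at a time ended the call of CRK36 in 11 cases, of CRK38 and CRK9 in 9 cases each and of CRK37 in 2, with adjusted p up to 0.136.

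**Figure D2:**
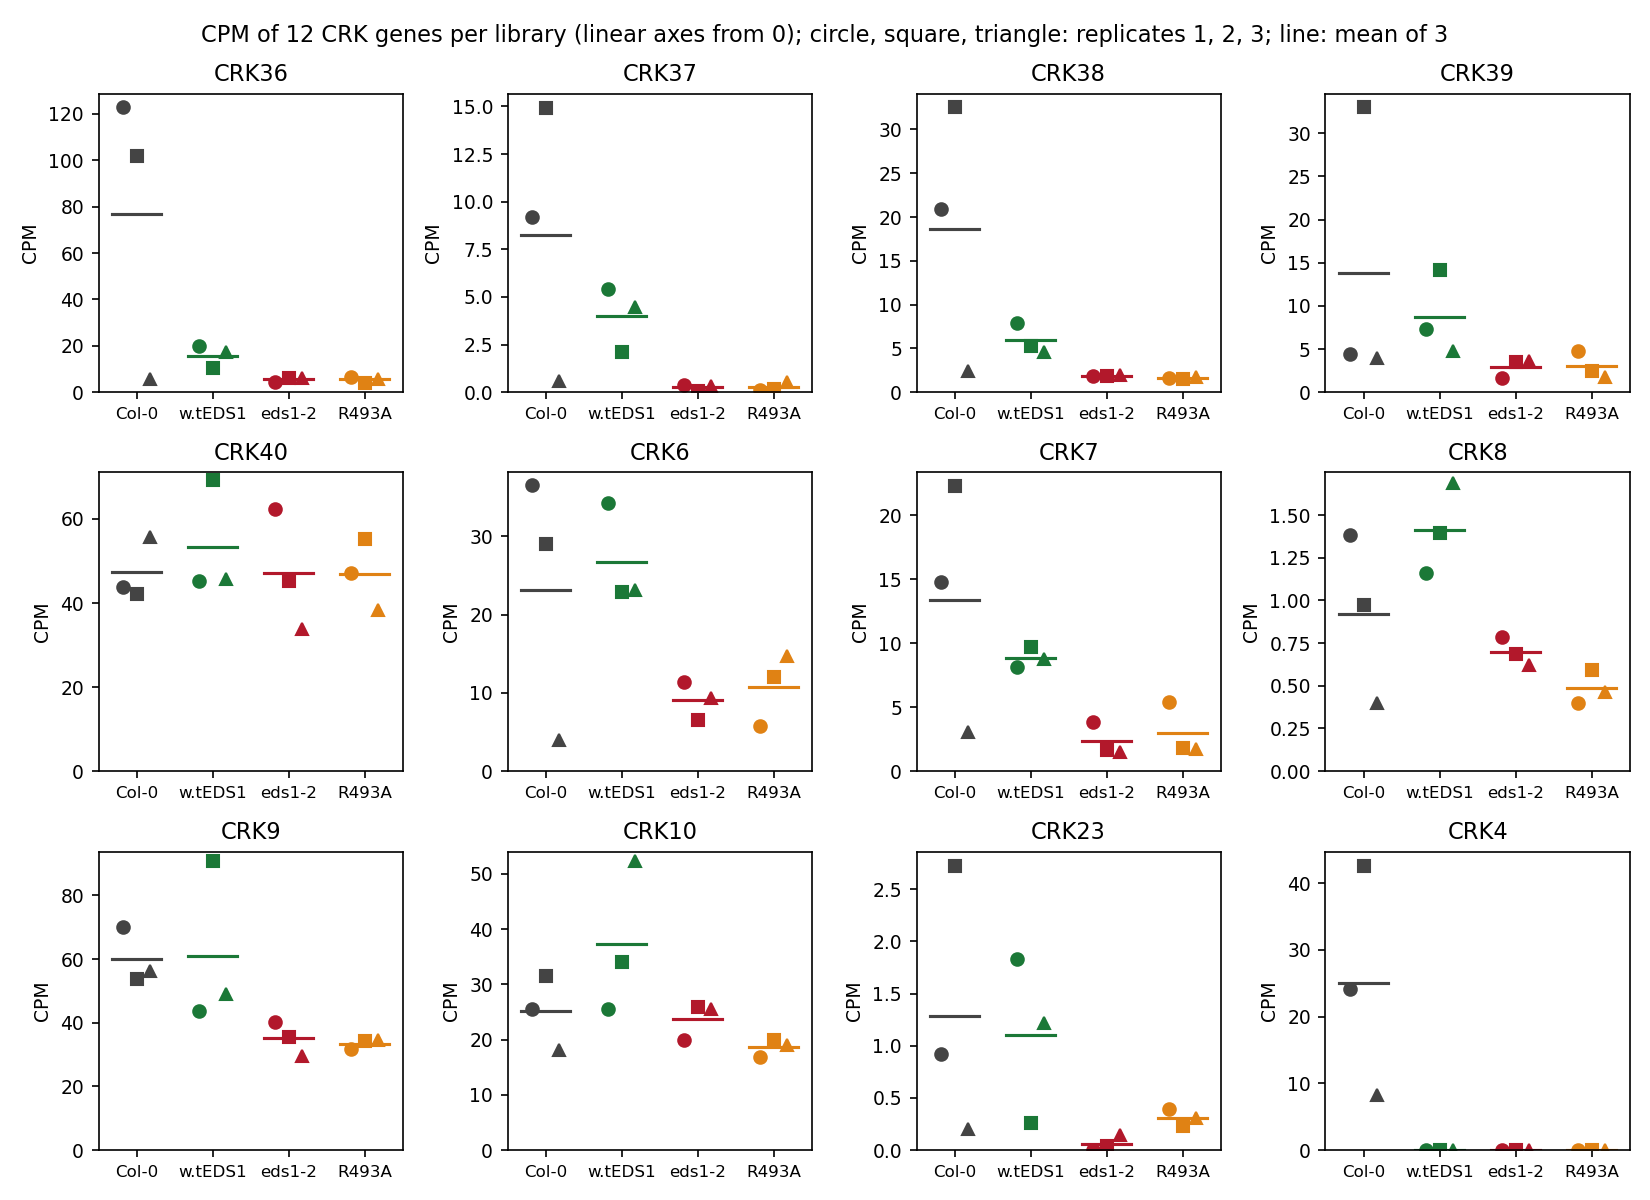
CPM of 12 CRK genes in each library on linear axes that start at 0, with circles, squares and triangles for replicates 1, 2 and 3 and a line at the mean of 3. For CRK36, CRK37, CRK38, CRK6, CRK7 and CRK9 the 3 w.tEDS1 points lie above the eds1-2 and R493A points. Col-0 replicate 3 (triangle) is far below the other Col-0 points for CRK36, CRK37, CRK38, CRK6 and CRK7. CRK40 overlaps in all genotypes, and CRK4 is present in Col-0 alone but for 1 read in w.tEDS1.

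The levels of w.tEDS1 can be set against the impaired lines without the Col-0 levels, although the Col-0 libraries still enter the shared estimate of spread behind each p. In 8 of the 37 tested members (21.6%) all 3 w.tEDS1 libraries were above all 6 libraries of eds1-2 and R493A, which was true of 2.72% of all tested genes. Among the 8 members were CRK36, CRK37, CRK38 and CRK39, which are 4 of the 5 genes of the array CRK36 to CRK40. The others were CRK6, CRK7, CRK8 and CRK9, which lie side by side among the 20 genes of the large array, from 12121369 to 12136796. Of these 8, CRK6 to CRK9 share 74.4% to 83.0% of aligned residues pairwise, so some of their reads may have been set aside. The same holds for CRK39, which shares 79.8% with CRK40. This contrast of w.tEDS1 alone with the mean of eds1-2 and R493A was chosen after the data were seen. None of the members was called in it (0 of 37, beside 0.277% of all genes). In the edgeR test 11 had an unadjusted p below 0.05, beside 761 of the 18770 genes. The lowest adjusted p was that of CRK37, at 0.0903 (log2 difference 3.86, SE 0.78, interval 2.15 to 5.56). The other eds1-2 and R493A libraries shared no lane with a wild-type library. Replicate 3 of both was in lane 8, and eds1-2 replicate 1 and R493A replicate 2 were in another sequencing run. Lane and run thus went partly with genotype here, in the pooled contrast and in the comparisons of w.tEDS1 with eds1-2 and R493A. The same holds for the counts of members without overlap in them. All w.tEDS1 libraries were in lane 7, as were Col-0 replicate 3, 1 eds1-2 and 1 R493A library. A fit with the lane thus sets w.tEDS1 directly beside only eds1-2 replicate 2, in which CRK37 had 2 reads. The lane value of CRK37 therefore rests on few reads. With the lane in the model, w.tEDS1 minus eds1-2 was 1.34 for CRK36, 5.46 for CRK37, 1.66 for CRK38 and 0.88 for CRK9 on the log2 scale, and none was called.

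CRK39 (AT4G04540) lay at 7.29, 14.2 and 4.77 CPM in w.tEDS1, against 1.69, 3.44 and 3.59 CPM in eds1-2 and 4.74, 2.47 and 1.75 CPM in R493A. Its lowest w.tEDS1 library was barely above its highest R493A library. In Col-0 it lay at 4.41, 33.0 and 3.93 CPM, so replicate 2 alone was high. The pooled log2 difference of 1.89 (SE 0.56, interval 0.68 to 3.11, adjusted p = 0.172) missed the threshold. CRK40 (AT4G04570) shares 79.8% of its residues with CRK39. It lay between 42.2 and 55.8 CPM in Col-0, between 45.2 and 69.3 CPM in w.tEDS1, between 33.8 and 62.4 CPM in eds1-2 and between 38.2 and 55.1 CPM in R493A. All 4 ranges of CRK40 overlapped.

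CRK6 (AT4G23140) and CRK7 (AT4G23150) are known for protection against extracellular oxidative stress, and a raised level of CRK6 strengthens pattern-triggered responses. CRK6 lay at 34.3, 22.9 and 23.1 CPM in w.tEDS1, against 11.4, 6.58 and 9.29 CPM in eds1-2 and 5.76, 12 and 14.7 CPM in R493A. In Col-0 it lay at 36.5, 29.1 and 3.93 CPM, so that Col-0 replicate 3 was the lowest of all 12 libraries. CRK7 lay at 8.11, 9.71 and 8.75 CPM in w.tEDS1, against 3.85, 1.64 and 1.49 CPM in eds1-2 and 5.40, 1.79 and 1.70 CPM in R493A, with 14.8, 22.3 and 3.03 CPM in Col-0. The pooled log2 differences were 1.33 for CRK6 (SE 0.43, adjusted p = 0.222) and 2.04 for CRK7 (SE 0.46, adjusted p = 0.0689), and neither passed. CRK8 (AT4G23160), a gene with few reads, lay at 1.16, 1.39 and 1.68 CPM in w.tEDS1, at 0.785, 0.688 and 0.623 CPM in eds1-2, at 0.398, 0.595 and 0.463 CPM in R493A and at 1.39, 0.973 and 0.398 CPM in Col-0. Its Col-0 libraries spanned the whole range of the impaired ones (pooled log2 difference 0.97, SE 0.28, adjusted p = 0.172). CRK10 (AT4G23180), the next gene along, is known for W-boxes in its promoter that WRKY18 recognises, although the letters searched here did not occur in its 250 bases and occurred at 1 place in 1000. It lay at 25.6, 34.1 and 52.3 CPM in w.tEDS1 and at 19.9, 25.9 and 25.6 CPM in eds1-2, so these groups overlapped, and at 16.8, 20.01 and 19.05 CPM in R493A and 25.6, 31.5 and 18.1 CPM in Col-0.

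**Figure D3:**
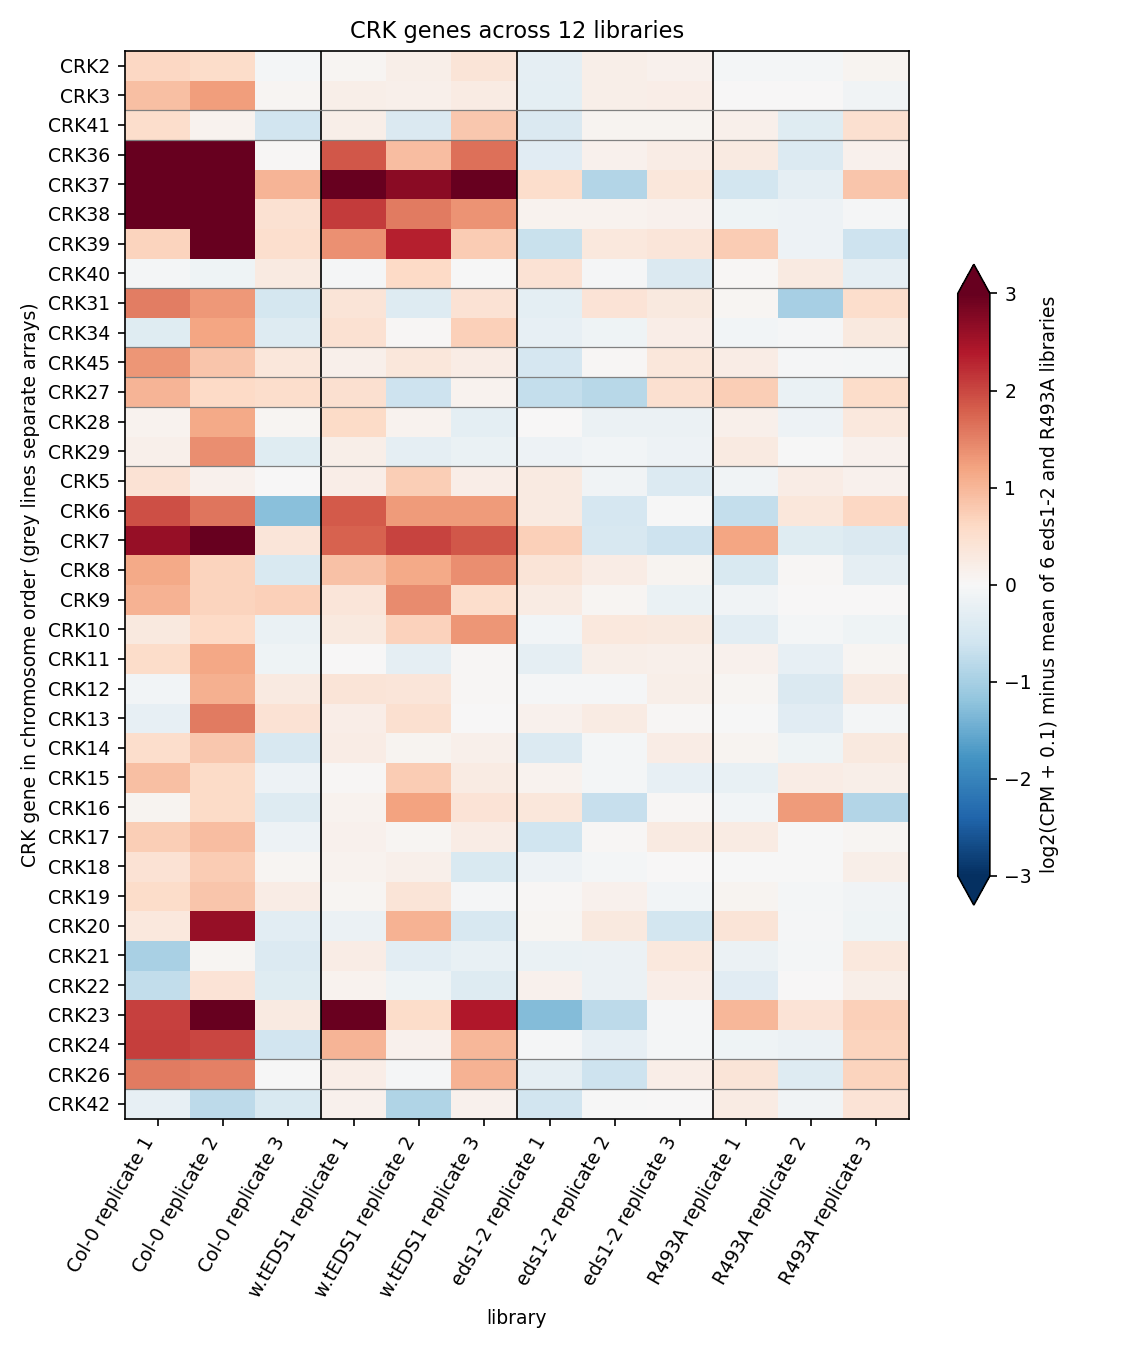
Each cell is the log2(CPM + 0.1) of a CRK gene in 1 library minus its mean over the 6 eds1-2 and R493A libraries, with colours limited to the range from −3 to 3, for the tested members other than CRK4. Rows follow chromosome order, grey lines separate arrays, and black lines separate genotypes. Red bands lie at CRK36 to CRK38 and at CRK6 and CRK7 in Col-0 replicates 1 and 2 and in the 3 w.tEDS1 libraries, while CRK39 is dark in Col-0 replicate 2 and not in Col-0 replicate 1.

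Against eds1-2 alone, w.tEDS1 sets a line with wild-type EDS1 beside the mutant. EDS1 in w.tEDS1 was above its range in Col-0, as given above. No member was called (0 of 37, beside 0.0746% of all genes), while 9 had an unadjusted p below 0.05, beside 499 of the 18770 genes. DESeq2 called 2, beside 0.443% of all genes. The median log2 difference was 0.34 over the members and −0.01 over all genes, with 34 members above 0. All 3 w.tEDS1 libraries were above all 3 eds1-2 libraries in 10 members (27.0%), beside 5.09% of all genes, and the reverse held for none. These 10 were the 8 named above with CRK23 and CRK24, which end the large array. CRK23 (AT4G23310) lay at 1.83, 0.261 and 1.22 CPM in w.tEDS1, but in eds1-2 it had 0, 1 and 3 reads. In R493A it lay at 0.398, 0.229 and 0.309 CPM, and in Col-0 at 0.924, 2.72 and 0.199 CPM. The differences of CRK23 therefore rest on few reads (log2 difference 4.11, SE 1.15, interval 1.58 to 6.64, adjusted p = 0.782). CRK37 had a log2 difference of 3.85 (SE 0.99, interval 1.67 to 6.03, adjusted p = 0.578), and DESeq2 called CRK37 (adjusted p = 0.00448) and CRK23 (adjusted p = 0.0484). Without Col-0 replicate 3 the edgeR fit called CRK36 (adjusted p = 0.0479), CRK37 (adjusted p = 0.0233) and CRK38 (adjusted p = 0.0242), beside 0.332% of all genes, with nearly the same differences.

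R493A against w.tEDS1 sets the exchange beside wild-type EDS1. The level of the EDS1 transcript also differed between these lines, at 24.7 ± 5.96 CPM in R493A and 144 ± 45.9 CPM in w.tEDS1 (SD, n = 3), so the exchange and the EDS1 level cannot be told apart here. No member was called (0 of 37, beside 0.224% of all genes), while 6 had an unadjusted p below 0.05, beside 864 of the 18770 genes. DESeq2 called 2, beside 0.778% of all genes. The median log2 difference was −0.22 over the members and 0.01 over all genes, and 30 members lay below 0. All 3 R493A libraries were below all 3 w.tEDS1 libraries in 11 members (29.7%), beside 7.68% of all genes, and none was the other way round. These were the 8 named above with CRK3, CRK10 and CRK13. The log2 difference was −3.86 for CRK37 (SE 1.01, interval −6.08 to −1.65, adjusted p = 0.323), −1.53 for CRK8 (SE 0.40, adjusted p = 0.336) and −1.003 for CRK10 (SE 0.26, adjusted p = 0.315). DESeq2 called CRK37 (adjusted p = 0.00309) and CRK10 (adjusted p = 0.0429). A fit of these 6 libraries alone called CRK37 (adjusted p = 0.0360) and CRK38 (adjusted p = 0.0311), beside 0.388% of all genes. This comparison and the one of w.tEDS1 with eds1-2 share the w.tEDS1 libraries, so their values are side by side and not independent.

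R493A and eds1-2 were close for most of the family. No member was called (0 of 37, beside 0.0373% of all genes), and DESeq2 called none, beside 0.165% of all genes. None had an unadjusted p below 0.05, beside 404 of the 18770 genes. The median log2 difference was 0.05 over the members and 0.00023 over all genes. The difference was −0.0016 for CRK36 (interval −1.70 to 1.70), −0.014 for CRK37 (−2.70 to 2.68), −0.23 for CRK38 (−1.75 to 1.28) and −0.07 for CRK9 (−0.60 to 0.46). The intervals of the first 3 leave room for differences of more than 1 on the log2 scale in either direction. CRK29 and CRK23 were higher in all R493A libraries than in all eds1-2 libraries, 5.41% of the members beside 4.17% of all genes. CRK38, CRK8 and CRK13 were lower, 8.11% beside 3.89%. These 5 were named after their values were seen.

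**Figure D4:**
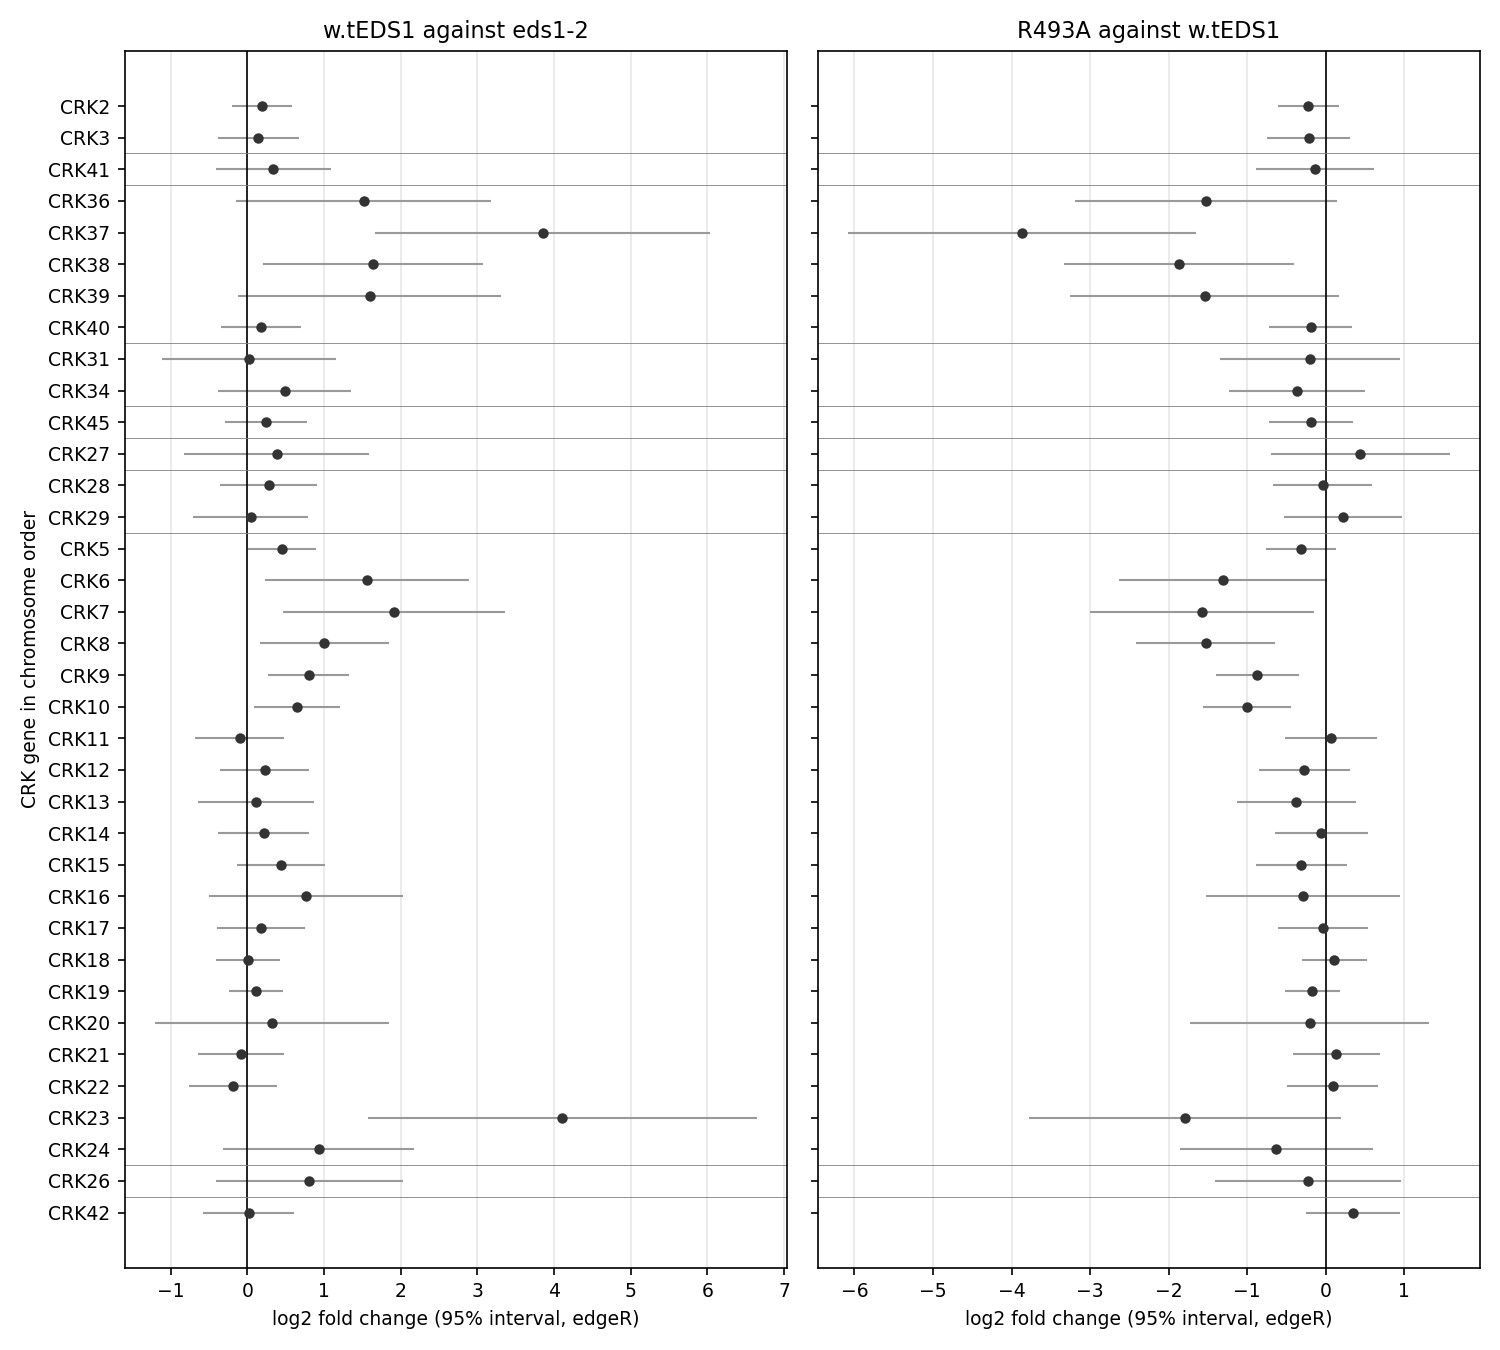
Log2 differences with 95% intervals from the edgeR fit for the tested CRK genes other than CRK4 in chromosome order, for w.tEDS1 against eds1-2 (left) and R493A against w.tEDS1 (right), with grey lines between arrays. The points of CRK36 to CRK39 and CRK6 to CRK10 lie right of 0 in the left panel and left of 0 in the right panel, and CRK40 and CRK11 lie near 0 in both.

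Against Col-0, eds1-2 had 4 members lower and none higher. The background share of lower calls was 1.44%. The called members were CRK4 and the neighbours CRK36, CRK37 and CRK38. The median log2 difference was −0.64 over the members and −0.01 over all genes, with 34 members below 0. The log2 difference was −3.80 for CRK36 (SE 0.80, adjusted p = 0.0408), −4.89 for CRK37 (SE 0.998, adjusted p = 0.0366) and −3.29 for CRK38 (SE 0.67, adjusted p = 0.0364). All eds1-2 libraries were below all Col-0 libraries in 11 members (29.7%), beside 10.3% of all genes. R493A gave the same 4 calls against Col-0, beside 1.51% of all genes, with CRK36 at −3.81 (adjusted p = 0.0396), CRK37 at −4.91 (adjusted p = 0.0363) and CRK38 at −3.52 (adjusted p = 0.0271). Both comparisons use the same Col-0 libraries. In both comparisons Col-0 replicate 3 was far nearer to the mutant libraries than Col-0 replicates 1 and 2 were. With the lane in the model, in which Col-0 replicates 1 and 2 have a lane of their own, the Col-0 level rested on replicate 3 alone. In that fit CRK36 lay at 0.16 in eds1-2 and at 0.18 in R493A. Without Col-0 replicate 3, eds1-2 had 20 members called lower, beside 9.69% of all genes, and R493A had 16, beside 8.33%. Leaving out other single libraries left as few as 1, with the share of all genes not given here. The calls of CRK36, CRK37 and CRK38 in eds1-2 were ended by leaving out 11, 10 and 11 of the 12 libraries in turn, and those in R493A by 11, 9 and 6.

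CRK4 (AT3G45860) was the member with the largest difference from Col-0, and it was lost from all 3 other genotypes, the line with wild-type EDS1 included. A raised level of CRK4 is known to strengthen pattern-triggered responses and to trigger cell death. The gene lies on the minus strand of chromosome 3, from 16863088 to 16866261, at a distance of 892241 bases from the start of EDS1. It had 575, 876 and 165 reads in Col-0 replicates 1, 2 and 3, which are 24.2, 42.6 and 8.20 CPM. In w.tEDS1 it had 1 read in replicate 2 and 0 in the others, and in eds1-2 and R493A it had 0 reads in every library. With the limit of 3 reads per group in place of 0, the Col-0 level was 557-fold that in eds1-2 and 508-fold that in R493A. The lower ends of the counting interval were 453 for eds1-2 and 413 for R493A. With 1 read in w.tEDS1, the ratio of Col-0 to w.tEDS1 was 1534 (counting interval 275 to 60581). CRK4 was called lower against Col-0 in eds1-2 (adjusted p = 0.00559), in R493A (adjusted p = 0.00495) and in w.tEDS1 (adjusted p = 0.00880), all by edgeR. It was the 1 member called in w.tEDS1 against Col-0, beside 1.09% of all genes, where the median log2 difference was −0.42 over the members and −0.01 over all genes. CRK36, at −2.28 there, was not called (adjusted p = 0.118). When the lane was a term of the model, the Col-0 level rested on replicate 3 alone, as Col-0 replicates 1 and 2 have a lane of their own. In that fit CRK36 lay at 1.4995, CRK37 at 2.73 and CRK38 at 1.28 in w.tEDS1 against Col-0. For CRK4, the calls against Col-0 in eds1-2 and R493A were kept when any library was left out. The call in w.tEDS1 was lost when any 1 w.tEDS1 library was left out, with adjusted p up to 0.0839. For this gene w.tEDS1 stood with the impaired lines and not with Col-0, and what the 3 lines share apart from the infiltration is not given by the labels.

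Of the remaining members with a low p in the pooled contrast, none was called. CRK45 (AT4G11890) lay at 482, 338 and 243 CPM in Col-0, at 213, 241 and 223 CPM in w.tEDS1, at 136, 195 and 241 CPM in eds1-2 and at 224, 187 and 183 CPM in R493A. All Col-0 libraries were above all others, while the other 3 genotypes overlapped (pooled log2 difference 0.54, SE 0.17, adjusted p = 0.223). CRK19 (AT4G23270), whose induced expression is known to cause cell death, lay at 176, 215 and 140 CPM in Col-0, at 125, 156 and 117 CPM in w.tEDS1, at 124, 130 and 113 CPM in eds1-2 and at 126, 116 and 112 CPM in R493A. Its w.tEDS1 libraries overlapped both impaired genotypes (pooled log2 difference 0.35, SE 0.11, adjusted p = 0.223). CRK24 (AT4G23320) lay at 7.10, 6.81 and 1.04 CPM in Col-0, at 3.38, 1.79 and 3.32 CPM in w.tEDS1, at 1.57, 1.33 and 1.53 CPM in eds1-2 and at 1.46, 1.42 and 2.63 CPM in R493A. Col-0 replicate 3 was its lowest library (pooled log2 difference 1.19, SE 0.40, adjusted p = 0.247). CRK3 (AT1G70530) lay at 74.97, 95.4 and 41.4 CPM in Col-0, while w.tEDS1, at 44.8, 44.2 and 47.2 CPM, overlapped eds1-2, at 32.6, 44.9 and 46.0 CPM. R493A, at 40.1, 40.1 and 36.96 CPM, was below w.tEDS1 (pooled log2 difference 0.50, SE 0.17, adjusted p = 0.260). CRK13 (AT4G23210), one of the most abundant members, lay between 212 and 735 CPM in Col-0 and between 251 and 350 CPM in w.tEDS1, with 254 to 296 CPM in eds1-2 and 196 to 249 CPM in R493A.

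Whether R493A differs from w.tEDS1 as eds1-2 differs from Col-0 was tested directly, as the first difference minus the second. No member was called (0 of 37, beside 0.16% of all genes), and DESeq2 called 1, CRK4, beside 2.87% of all genes. CRK4 had 1 read in w.tEDS1 and 0 in eds1-2 and R493A, so its value rests on its level in Col-0. An unadjusted p below 0.05 in the edgeR test was found for 3 of 37 members and for 2849 of the 18770 genes. The share was thus smaller in the members than in all genes. The 3 members were CRK27 (1.63), CRK10 (−0.92) and CRK18 (0.62), named after their values were seen. The median was 0.56 over the members and 0.03 over all genes. These 2 differences share no library, but that of eds1-2 holds the Col-0 replicates that stood apart.

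Genes linked to CRKs by regulation, by joint action or by the DUF26 domain were read from lists. Of 10 regulators of the salicylic acid response, 5 were higher with wild-type EDS1 in the pooled contrast, beside 1.08% of all genes, and none was lower. The median log2 difference of the 10 was 1.44. WRKY70, a transcription factor of this response, had a difference of 3.60 (SE 0.25, adjusted p = 4.68e-05), its relative WRKY54 one of 3.37 (adjusted p = 0.000129), and SARD1, an activator of the synthesis gene ICS1, one of 3.40 (adjusted p = 0.000340). ICS1 (3.24, adjusted p = 0.0185) and WRKY60 (1.36, adjusted p = 0.0449) were also higher. Against eds1-2, w.tEDS1 had 3 of the 10 higher (beside 0.0746% of all genes), WRKY70 at 3.34, WRKY54 at 3.10 and SARD1 at 2.88. No CRK was called in that comparison. Lower calls among the 10 were 4 in eds1-2 against Col-0 (beside 1.44% of all genes) and 4 in R493A against Col-0 (1.51%). In R493A against w.tEDS1 they were 3 (0.208%). WRKY factors are known to bind W-boxes, and no binding was measured here. Of 8 receptors, co-receptors and oxidative burst genes known to act with CRKs, including FLS2, BIK1, BAK1 and RBOHD, none was called in any comparison. Their median log2 difference from Col-0 was −0.56 in eds1-2 and −0.44 in w.tEDS1, and it was −0.02 between w.tEDS1 and eds1-2. Of 8 plasmodesmata-located proteins with DUF26 domains, 7 were tested and only PDLP5, which closes plasmodesmata in the salicylic acid response, was called, lower in eds1-2 (−1.42, SE 0.27, adjusted p = 0.0268) and in R493A (−1.23, SE 0.26, adjusted p = 0.0416) than in Col-0. Lower calls over all genes were 1.44% in eds1-2 and 1.51% in R493A against Col-0. Of secreted DUF26 proteins, only the 28 genes that RefSeq names cysteine-rich repeat secretory proteins were listed. None of these 28 had enough reads to be tested.

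Members with a W-box in the 250 bases upstream were set beside those without. In the pooled contrast, the 24 tested members with a box had a median log2 difference of 0.49, with 4 called higher, and the 13 without had a median of 0.37, with none called. For w.tEDS1 against eds1-2 the medians were 0.47 and 0.19. CRK7, with no box, had a pooled difference of 2.04, and CRK11, with 4 boxes, had a difference from eds1-2 to w.tEDS1 of −0.10. These are descriptions of the members and carry no test.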

How the data were processed

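The authors deposited 1 table of raw read counts per gene for the 12 libraries, on genome build TAIR10. Per the submitters' processing notes, TopHat2, HTSeq and limma were used, with no version or setting given. The 5 summary entries, 9.69% to 22.9% of a column, were left out, and no column was without a sample (0). The main tool was edgeR 4.0.16 under R 4.3.3, which gave every adjusted p unless another tool is named. The filterByExpr function kept 18770 genes. Library sizes were scaled by TMM, and a quasi-likelihood model with genotype as its term was fitted to all 12 libraries, with Benjamini-Hochberg adjustment over all tested genes and calls at an adjusted p under 0.05. Fold changes are log2 with a prior count of 0.125, and the steps were tested on simulated data. Limits for 0 reads use 3 counts. Replicates are separate pools of plants.

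Members, gene lists, tests and alternatives were chosen with earlier results of these data known. Named with values were members called in any comparison or without reads in a genotype. Values of every library are given for CRK4 and the 14 members of lowest adjusted p in the pooled contrast, with up to 5 examples of high level. Alternatives were DESeq2 1.42.0, limma-voom (3.58.1), other scaling and filters, the replicate number, run or lane in the model, subsets of libraries, and libraries left out 1 at a time. Gene models, proteins and promoters come from RefSeq's TAIR10.1, whose nuclear sequence was taken as that of TAIR10. It gave positions for all 42 members.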

Additional observations from a re-analysis of the deposited data

How the results depend on the processing

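Counts of called CRK members depended on the model and on single libraries. The share of all genes called also moved and is not given here for every setting. Where that share is missing, a count therefore shows nothing particular to the family. Without Col-0 replicate 3, lower calls in eds1-2 against Col-0 went from 1.44% to 9.69% of all genes. Higher calls in the pooled contrast went from 1.08% to 2.96% of all genes with DESeq2. For eds1-2 against Col-0 the count of 4 became 12 with DESeq2, 1 with limma-voom, with the run in the model or in the main sequencing run alone, and 0 with the lane or in the 6 libraries alone. For R493A against Col-0 the count of 4 became 10 with DESeq2, 1 in the same 3 settings and 0 with the lane or in the 6 libraries. The pooled count of 4 became 9 with DESeq2 and 0 with limma-voom, the run in the model, the main run alone, the lane, or w.tEDS1 alone. DESeq2 gave 2 for w.tEDS1 against eds1-2, for R493A against w.tEDS1 (also 2 in the 6 libraries) and for w.tEDS1 against Col-0, and 1 for the difference of effects. Leaving out 1 library gave 1 to 20 for eds1-2 against Col-0, 1 to 16 for R493A against Col-0, 0 to 12 for w.tEDS1 against Col-0, 0 to 14 for the pooled contrast, 0 to 3 for w.tEDS1 against eds1-2 and for R493A against w.tEDS1, and 0 to 2 for the difference of effects. The highest counts came without Col-0 replicate 3. The cause was not tested. CRK36 turned positive against Col-0 with the lane, at 0.16 in eds1-2 and 0.18 in R493A, in a fit where Col-0 rested on replicate 3 alone. DESeq2 size factors and no filter on low counts changed none of these counts.

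Replicate numbers did not pair the libraries: same-numbered libraries of 2 genotypes correlated at −0.51 to 0.38, with 4 of 18 pairs over 0.1, and 2 of 12 libraries correlated best with their own number. With the replicate block, 1 member was called in eds1-2 against Col-0, in R493A against Col-0 and in the pooled contrast. The share of all genes called in that fit is not given here. Depth limits CRK37, CRK23 and CRK8, which had few reads per impaired library.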
